A study of Homo sapiens with 4 samples.

Results

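The human genome carries its densest collection of C2H2 zinc finger genes on chromosome 19, and RNA sequencing of SK-N-BE(2) neuroblastoma cells showed how their transcripts stood after METTL14 knockdown. The genes were taken as all protein-coding genes on chromosome 19 whose symbol is ZNF followed by a number, with or without a letter. This gave 247 of the 60671 genes counted, and 263 further ZNF genes of the same naming lay on other chromosomes. SK-N-BE(2) is an established cell line from a human neuroblastoma and has extra copies of MYCN. The cells expressed a short hairpin RNA from the pLKO.1 lentiviral vector, either a control (shNC) or directed at METTL14 (shMETTL14), and the labels do not say which of the study's METTL14 hairpins was used. Each group had 2 libraries, no time point was named, and both lines had been selected with puromycin, per the study's methods for its hairpin lines. The study's methods describe its data in general as from independent biological replications, but more of them than the 2 libraries per group here. Nothing in the sources says of these libraries that those of a group came from separate cultures. The p-values therefore measure only the spread between these libraries.

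C2H2 zinc finger proteins bind DNA, or in some cases RNA, through tandem fingers, each folded around a zinc ion held by a pair of cysteines and a pair of histidines. In most of the genes on chromosome 19 the fingers follow a KRAB domain, whose A box recruits TRIM28 (KAP1) and, through it, the histone methyltransferase SETDB1 and HP1 proteins. Such proteins are best known for silencing transposable elements, and the genes have multiplied by local duplication, which is why they stand in clusters. METTL14 is the RNA-binding partner of METTL3 in the enzyme that writes N6-methyladenosine (m6A) on messenger RNA.

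The repeated fingers give these genes a sequence of their own, which is shown here because it holds a word that fits the pattern methylated by this enzyme. Neighbouring fingers are joined by a conserved linker, and 243 of the 247 genes held at least 1 finger followed by a linker and a further finger of the standard spacing, 2639 such units of 84 bases in all. The 5 bases at the lysine codon of the linker and the start of the proline codon read AAACC in 54.6% of the units and AAGCC in 17.0%. The most common linker, found in 143 units of 41 genes, is given first, followed by the first unit of 4 genes whose transcripts are described below. Capitals mark these 5 bases. The sequences are those of the annotated coding exons on the GRCh38 build (GENCODE release 29), written in the direction of the gene.

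Most common linker: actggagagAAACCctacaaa
ZNF253, plus strand, chr19:19891767-19891850: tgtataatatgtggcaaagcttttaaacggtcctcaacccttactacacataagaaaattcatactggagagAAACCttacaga
ZNF208, minus strand, chr19:21974260-21974343: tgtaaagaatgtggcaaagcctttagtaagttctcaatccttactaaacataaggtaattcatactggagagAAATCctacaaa
ZNF146, plus strand, chr19:36236492-36236575: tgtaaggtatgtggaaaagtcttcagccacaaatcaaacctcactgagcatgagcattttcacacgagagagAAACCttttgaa
ZNF787, minus strand, chr19:56088887-56088970: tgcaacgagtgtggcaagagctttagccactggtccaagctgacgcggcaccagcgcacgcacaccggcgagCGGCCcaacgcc

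All 10 units of ZNF253 carried AAACC, as did 22 of 33 in ZNF208 and 4 of 9 in ZNF146, while none of the 4 units of ZNF787 did. ZNF787 is among the GC-rich genes of the family that lack a KRAB A box.

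The targeted gene was checked first. METTL14 had 753 and 754 counts in shNC libraries 1 and 2 and 303 and 321 counts in the shMETTL14 libraries, a log2 fold change of -1.26 with a standard error (SE) of 0.08 (edgeR quasi-likelihood test, adjusted p 3.64e-11). Reads counted in genes ranged from 18925786 to 19886214 per library. All 10 neuroblastoma markers were detected, MYCN with 49710 to 61727 counts, 2 of them higher and 8 lower in shMETTL14. Of 9 markers of other cell types, CD68 and PECAM1 had at most 2 counts and CDH5 at most 4 in any library. The summed level of the 9 markers was 66.8 and 64.7 CPM (counts relative to the scaled library size) in shNC and 33.6 and 36.1 CPM in shMETTL14, with COL1A1, COL3A1, PDGFRA and EPCAM called lower, and its part in the results below was not tested. In bulk RNA, fewer cells of a type and less RNA per cell cannot be told apart.

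The chromosome 19 ZNF genes were slightly lower on balance after METTL14 knockdown, with decreases more frequent than increases and most of them small. Of the 247 genes, 235 had enough counts to be tested, and 12 did not. Calls were made at an edgeR adjusted p below 0.05, with the adjustment over all 16309 genes tested. By this rule 51 members were lower and 22 higher in shMETTL14, and 162 were not called, against a background of 25.3% lower and 27.2% higher among all tested genes. As shares of the tested members these were 21.7% lower and 9.36% higher, and 31.1% called in either direction against 52.5% of all genes. The lower share was thus below the background and the higher share further below it. The split moved with the scaling: without any correction for composition the members counted 63 lower and 15 higher, and with upper quartile scaling 69 lower and 15 higher, so that the increases made up 30.1% of calls under TMM, the scaling used throughout, and 19.2% and 17.9% under these. Without shNC library 1 the members counted 52 lower and 13 higher. DESeq2 called 23 lower and 6 higher, against a background of 14.3% and 18.6%.

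The median log2 fold change of the tested members was -0.13, with quartiles of -0.34 and 0.09 and extremes of -1.29 and 1.15. Over all tested genes the median was -0.00, and over the 702 other protein-coding genes of chromosome 19 it was 0.06. A negative sign was found for 155 of the 235 members, 66.0%, against 50.1% of all genes. Genes of low level leaned down in general. Between a mean log2 CPM of 1 and 2 the median was -0.20 over all genes and -0.21 over members. Between 2 and 3 these medians were -0.15 and -0.10, so members were not lower than other genes of their level. Between 3 and 4 they were -0.02 and -0.12, and at 4 or above 0.06 and -0.14. Both shMETTL14 libraries lay on the same side of both controls for 64.3% of the members, against 75.5% of all genes, and this held for all 73 called members. Most calls were small. A change of at least 1.5-fold beside the adjusted p was reached by 16 members that were lower and 8 that were higher. The backgrounds were 11.4% and 7.44% of all genes. At least 2-fold was reached by 2 lower and 2 higher of the 235, against 977 lower and 456 higher of all 16309 genes tested.

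The summed level of the 247 genes was slightly lower after the knockdown. It was 2883 and 2881 CPM in shNC and 2668 and 2652 CPM in shMETTL14, so that the shMETTL14 mean stood at 92.3% of the control. The shMETTL14 libraries were thus both below both controls, by far more than libraries of a group differed. The summed level of the ZNF genes on other chromosomes moved alike, to 93.0% of its control.

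**Figure D1:**
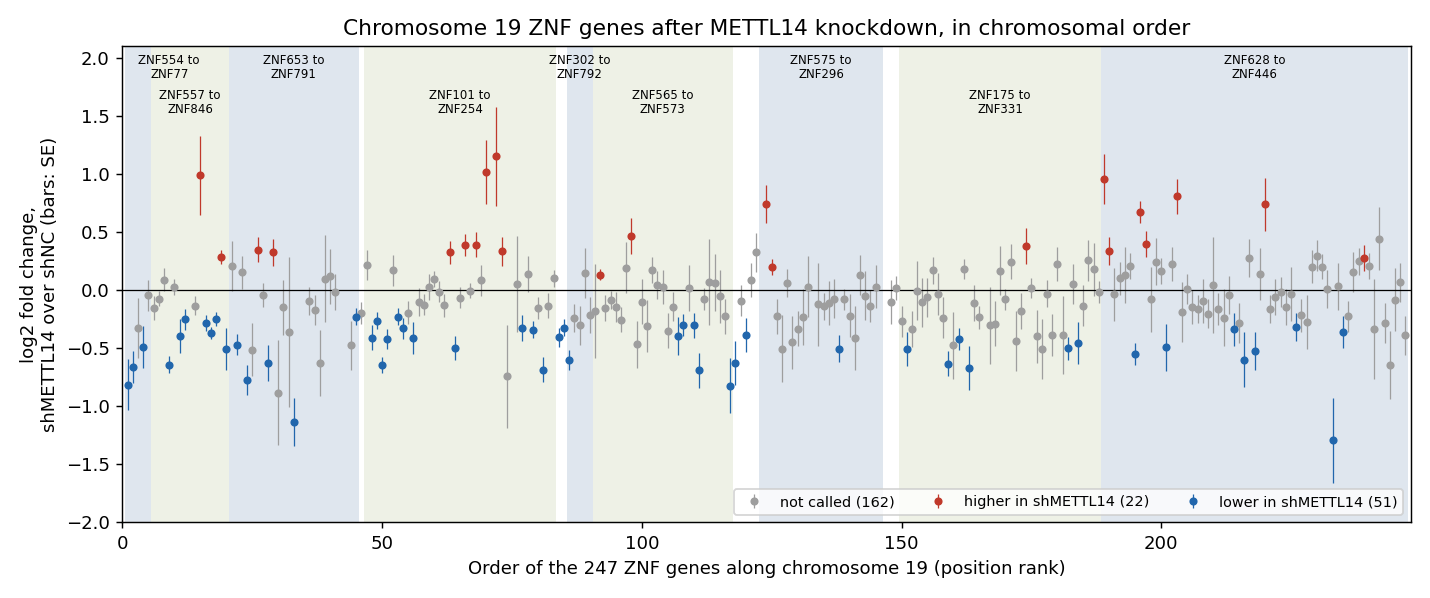
Log2 fold change of each tested ZNF gene (points, with SE bars) against its rank along chromosome 19, with shaded bands for the 9 clusters of at least 5 genes, named by their first and last gene. Blue points are the 51 genes called lower, red points the 22 called higher and grey points the 162 not called; decreases are spread over all 9 bands, while the increases are few.

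Low abundance limits what could be seen. In RPKM (CPM divided by the kilobases of exon, the scale used here to compare genes) the median over all 247 members was 1.46 in shNC, against 5.61 for the tested protein-coding genes. The median member had 581 counts over the 4 libraries and a SE of 0.149 on the log2 scale, against 1507 counts and 0.0952 for all tested genes. Above a mean log2 CPM of 1, the share called climbed with the level. Of the 38 members with a mean log2 CPM between 1 and 2, 5 were lower and 2 higher, and of the 47 members at 4 or above, 19 were lower and 6 higher. In that best measured bin the members had 40.4% lower and 12.8% higher, against 26.0% and 39.5% of the 8699 genes of the same bin. Those genes still had a higher median log2 CPM than the members there, 5.76 against 4.61. The bin of 3 to 4 had 23.4% lower and 10.9% higher, against 28.2% and 25.2%. In both bins the share of increases among members was under that of all genes, whereas the share of decreases was above it only in the bin of highest level. No test of these differences in share was made.

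The most abundant members were for the most part genes without a KRAB A box. ZNF146, at chr19:36214602-36238774, encodes a protein made almost only of fingers and had the highest level, 28.9 RPKM in shNC. Its counts of 2424 and 2261 in shNC and 2484 and 2609 in shMETTL14 gave a log2 fold change of 0.13 (SE 0.05, edgeR adjusted p 0.0218). Its exons overlap those of ZNF565 on the opposite strand. ZNF428, with a single finger, stood at 21.4 RPKM and had 753 and 755 counts in shNC against 862 and 858 in shMETTL14, a log2 fold change of 0.20 (SE 0.07, edgeR adjusted p 0.0157). The exons of ZNF428 overlap those of SRRM5 on the opposite strand. Neither small increase was called when libraries were scaled by their size alone (edgeR adjusted p 0.127 and 0.0575). The same held with upper quartile scaling (edgeR adjusted p 0.267 and 0.104) and with DESeq2 (DESeq2 adjusted p 0.116 and 0.134). Both also lost the call without shMETTL14 library 2 (0.0907 and 0.20 on the log2 scale). ZNF146 lost it without shNC library 2 (0.11) and ZNF428 without shNC library 1 (0.16). ZNF358 (21.2 RPKM) was not called, with 856 and 857 counts in shNC and 808 and 807 in shMETTL14.

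ZNF121, whose product has been reported to bind MYC, was the most abundant gene to fall. It lies at chr19:9560353-9584533, and its 2217 and 1976 counts in shNC stood against 1597 and 1620 in shMETTL14, a log2 fold change of -0.37 (SE 0.05, edgeR adjusted p 1.68e-06). ZNF253 completed the 5 most abundant, at 12.7 RPKM, and had the smallest adjusted p of its cluster. Its counts were 917 and 889 in shNC and 573 and 574 in shMETTL14, a fall of 0.65 on the log2 scale (SE 0.07, edgeR adjusted p 8.19e-08). The replicates of ZNF253 were nearly equal and the groups were far apart. At the other end, the 12 genes too low to test had at most 12 counts in any library, and ZNF625, ZNF723, ZNF541 and ZNF534 had 3 or fewer in every library, so no change was detectable at this depth.

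The largest decreases were found in KRAB genes of low to moderate level. ZNF844 had 108 and 96 counts in shNC and 43 and 49 in shMETTL14, a log2 fold change of -1.14 (SE 0.21, edgeR adjusted p 8.82e-05). ZNF441, in the same cluster, had 222 and 224 counts against 128 and 131 (-0.77, SE 0.13, edgeR adjusted p 2.90e-05). For both genes every shMETTL14 library was well under every control. ZNF681 had 376 and 350 counts in shNC against 211 and 237 in shMETTL14, and ZNF555 had 225 and 184 against 131 and 125, with log2 fold changes of -0.69 and -0.67. ZNF570 fell from 167 and 162 counts to 100 and 102 (-0.69, SE 0.15, edgeR adjusted p 4.71e-04), and its exons overlap those of ZNF569 on the opposite strand. That the groups of these genes did not overlap was a condition of the naming rule.

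A further 3 of the 8 largest decreases rested on fewer counts. ZNF573 had 68 and 80 counts in shNC and 41 and 42 in shMETTL14, ZNF554 had 104 and 77 against 54 and 48, and ZNF610 had 105 and 113 against 77 and 59. Their log2 fold changes were -0.82, -0.81 and -0.67, and edgeR adjusted p-values were 0.00626, 0.00332 and 0.00535. None of the 3 was called by DESeq2, and each lost its call without 1 of the libraries: ZNF573 without shNC library 2 (-0.67), ZNF554 without shNC library 1 (-0.62) and ZNF610 without shMETTL14 library 2 (-0.50). The lowest fold change of all members belonged to ZNF418, named here after its value was seen, with 39 and 33 counts in shNC and 16 and 13 in shMETTL14 (-1.29, SE 0.37).

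Increases were fewer and drawn from both kinds of gene. ZNF787 (chr19:56087366-56121280), which has no KRAB A box, had 334 and 270 counts in shNC and 469 and 485 in shMETTL14, a log2 fold change of 0.67 (SE 0.10, edgeR adjusted p 4.78e-06). ZNF71, induced by tumour necrosis factor in endothelial cells, had 116 and 93 counts against 192 and 171 (0.81, SE 0.15, edgeR adjusted p 1.01e-04). In both genes the higher control library was clearly under the lower knockdown library. For the increases too, groups that did not overlap were a condition of the naming rule. ZNF576 had 96 and 83 counts in shNC and 156 and 141 in shMETTL14 (0.74, SE 0.16, edgeR adjusted p 5.38e-04), and shares exon sequence with SRRM5. ZNF628 had 61 and 55 counts against 88 and 135 (0.95, SE 0.22, edgeR adjusted p 8.46e-04), so that its knockdown libraries differed from each other by more than the controls did. Without shMETTL14 library 2 its log2 fold change was 0.61 (edgeR adjusted p 0.047).

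The other 4 of the 8 largest increases at a mean log2 CPM of 1 or more were less secure. ZNF98, with the largest log2 fold change of all members (1.15), and ZNF560 were called higher below that level. ZNF676 had 26 and 35 counts in shNC and 56 and 67 in shMETTL14 (1.02, SE 0.28, edgeR adjusted p 0.00367), and ZNF530 had 43 and 57 against 92 and 74 (0.74). ZNF567 had 105 and 104 counts in shNC and 142 and 144 in shMETTL14 (0.46), and ZNF444, whose product binds the promoter of the scavenger receptor SCARF1, had 302 and 227 against 356 and 333 (0.39). DESeq2 called none of these 4. Without shNC library 1 the log2 fold changes of ZNF676, ZNF530 and ZNF567 were 0.79, 0.52 and 0.43 and no longer called. ZNF530 also lost its call without shMETTL14 library 1 (0.59), ZNF567 without shMETTL14 library 2 (0.45) and ZNF444 without shNC library 2 (0.23).

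**Figure D2:**
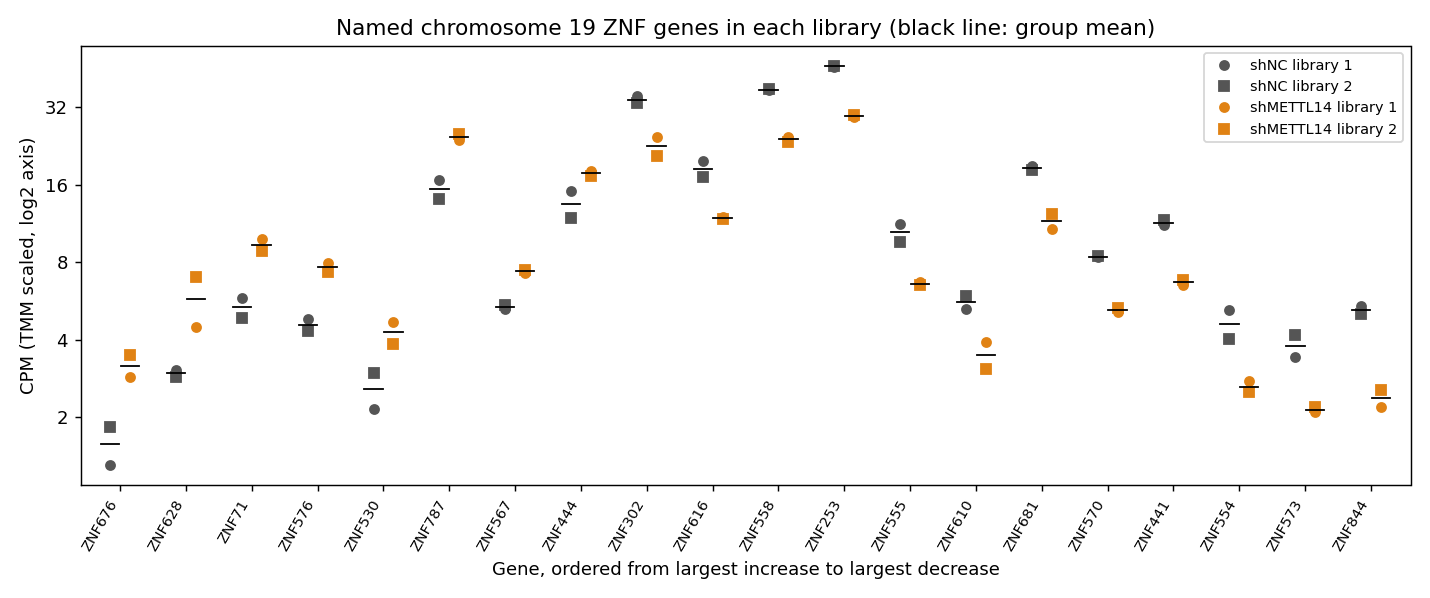
Level in CPM, after TMM scaling (log2 axis), of the 8 largest increases and 8 largest decreases among called genes whose mean log2 CPM was 1 or more, and of the called gene with the smallest adjusted p in each cluster of at least 5 tested members. Grey symbols are the shNC libraries, orange symbols the shMETTL14 libraries, circles library 1, squares library 2 and black lines group means; ZNF253, ZNF558 and ZNF441 show closely placed libraries, and ZNF628 and ZNF676 widely placed ones.

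With edgeR and TMM scaling, members with and without a KRAB A box differed in balance. The box was found in 211 members and not in 36. Of the 202 tested KRAB members 47 were lower and 14 higher, that is 23.3% and 6.93%, with a median log2 fold change of -0.15 and a negative sign in 69.8%. Of the 33 tested members without the box 4 were lower and 8 higher, 12.1% and 24.2%, with a median of 0.09. The shares among members without KRAB stood close to those of all genes for increases and below them for decreases. Their median was between 0.01, without shMETTL14 library 2, and 0.12 over the refits, and that of the KRAB members between -0.22 and -0.14. Their number of increases was 4 when scaled by library size or by the upper quartile, and 4 without shNC library 2 or shMETTL14 library 2. The KRAB members counted 6 increases without shNC library 1 and 9 without shMETTL14 library 1. Members without the box counted 4 higher and 5 lower with library size or upper quartile scaling, and 3 higher and 4 lower by DESeq2. Their excess of increases was thus not seen under these settings. The difference between the kinds was not tested.

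The 8 increases without the box were ZNF628, ZNF576, ZNF787, ZNF444, ZNF428 and ZNF146, described above, and ZNF492 and ZNF579, named after their values were seen. The 4 decreases were ZNF121, ZNF536, ZNF507 and ZNF581. ZNF507 and ZNF581 were named after their values were seen, and ZNF581 overlaps CCDC106 and ZNF580. ZNF536, a repressor of neuronal differentiation genes that stands alone at chr19:30228290-30713538, had 661 and 713 counts in shNC and 507 and 522 in shMETTL14, a log2 fold change of -0.41 (SE 0.08, edgeR adjusted p 1.96e-04). Members without the box also differed in base composition, with a median GC content of the coding sequence of 62.4% against 41.5% for KRAB members, so the kind of protein and the composition of its transcript cannot be told apart here.

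**Figure D3:**
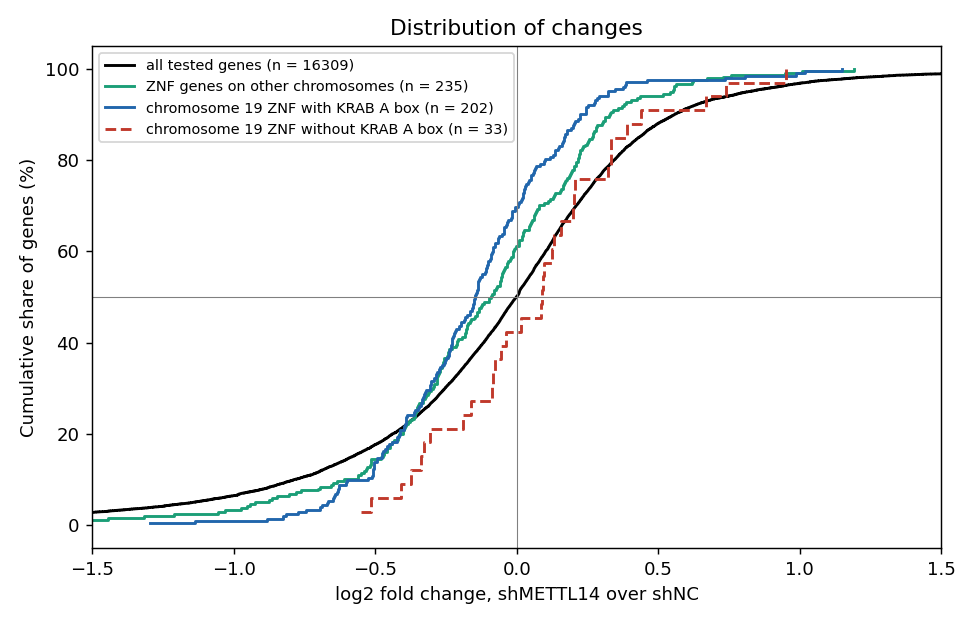
Cumulative share of genes (%) against log2 fold change for all 16309 tested genes (black), the 235 tested ZNF genes on other chromosomes (green), the 202 tested chromosome 19 ZNF genes with a KRAB A box (blue) and the 33 without (red, dashed); values beyond 1.5 on either side are not drawn. The blue curve crosses 50% at -0.15, the green at -0.09, the black at -0.00 and the red at 0.09.

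ZNF genes on other chromosomes also had more decreases than increases, and more of them were called. Of 235 tested there, 83 were lower and 47 higher, 35.3% and 20%, with a median log2 fold change of -0.09 and a negative sign in 61.3%. They were more abundant, with a median log2 CPM of 4.23 against 2.92 for the chromosome 19 genes. Among those at a log2 CPM of 4 or above, 53 of 137 were lower and 35 higher, 38.7% and 25.5%. In this bin the share of decreases was thus close to the 40.4% of the chromosome 19 genes. The share of increases was above their 12.8%. Levels in the bin still differed, with a median log2 CPM of 4.61 for the chromosome 19 genes and 5.06 for the ZNF genes elsewhere. The KRAB split was not seen there: 105 tested genes with the box had 31 lower and 18 higher with a median of -0.09, and 130 without it had 52 lower and 29 higher with a median of -0.10. Neither difference between chromosomes was tested.

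Along the chromosome the members fell into 16 groups when a new group began after a gap of over 1 Mb. Of these, 9 held at least 5 members, 236 in all, and 4 were single genes. More members were called lower than higher in 8 of the 9. The exception, from ZNF575 to ZNF296 (chr19:43525497-45076588), had 1 lower and 2 higher of 21 tested, although its median log2 fold change was -0.12. All 9 medians were negative, between -0.49 and -0.04.

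Among the 9 clusters of at least 5 members, the 2 nearest the short arm telomere had the largest shares of decreases. These were 60% and 50%, against 25.3% of all tested genes, and the first cluster holds only 5 genes. In the 5 genes from ZNF554 to ZNF77 (chr19:2819874-2944971) 3 were lower and none higher, and all 5 had negative log2 fold changes with a median of -0.49. From ZNF557 to ZNF846 (chr19:7069444-9793180) 7 of 14 tested were lower and 2 higher, 50% and 14.3%. All genes at a mean log2 CPM of 4 or above had 26.0% lower and 39.5% higher. This ZNF cluster had the highest median log2 CPM of the 9, 5.05, and the share of members called climbed with the level. ZNF558, a KRAB gene known to repress the mitochondrial quality control gene SPATA18, had the smallest adjusted p there, with 743 and 725 counts in shNC and 482 and 452 in shMETTL14 (-0.64, SE 0.08, edgeR adjusted p 3.29e-07). Decreases in this cluster stood beside ZNF562 and ZNF560, which were higher and are named after their values were seen. ZNF562 had 960 and 911 counts in shNC against 1120 and 1144 in shMETTL14. The cluster from ZNF653 to ZNF791 (chr19:11483427-12640098), which holds ZNF844 and ZNF441, had 5 lower and 2 higher of 21 tested with a median of -0.17.

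The pericentromeric cluster from ZNF101 to ZNF254 (chr19:19668796-24129961) held the most calls, 11 lower and 6 higher of 35 tested, with a median of -0.10. These were 31.4% and 17.1%, against 25.3% and 27.2% of all tested genes. The share called in either direction, 48.6%, was below the 52.5% of all genes. The median log2 CPM of this cluster was above that of all members, and the share of members called climbed with the level. Of the 37 members in the cluster, 35 have a KRAB A box, and the family is known to have expanded here in primates. The decreases included ZNF91, which represses SVA retrotransposons and has 31 fingers, with 809 and 872 counts in shNC and 666 and 651 in shMETTL14 (-0.34, SE 0.07, edgeR adjusted p 4.53e-04). They also included ZNF93, which represses young LINE-1 elements, with 481 and 482 counts against 367 and 346 (-0.42, SE 0.09, edgeR adjusted p 3.07e-04). In both, the groups did not overlap.

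Increases in this cluster stood close together. Of 5 neighbouring tested genes from ZNF208 to ZNF492, all with positive log2 fold changes, 4 were called higher, which was noticed after the values were seen. ZNF208, with 36 fingers the longest array of all members, had 240 and 212 counts in shNC and 300 and 287 in shMETTL14 (0.39, SE 0.11, edgeR adjusted p 0.00454). ZNF676 lies next but 1 to it. ZNF98 had only 22 and 7 counts against 29 and 35 (1.15, SE 0.42), and 33.1% of its transcript windows of 100 bases occur in other ZNF genes, as do 17.9% of those of ZNF492 (194 and 164 counts against 214 and 234). For these 2 genes the authors' counting could have split or dropped reads.

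On the long arm the shares were lower, 25 lower and 12 higher of 159 tested against 26 lower and 10 higher of 76 on the short arm. The medians were -0.11 and -0.15, and the median log2 CPM was 2.76 against 3.71. The cluster of 5 from ZNF302 to ZNF792 (chr19:34677639-34964049) had 1 call, ZNF302, with 706 and 635 counts in shNC and 480 and 397 in shMETTL14 (-0.60, SE 0.09, edgeR adjusted p 4.79e-06). From ZNF565 to ZNF573 (chr19:36182060-37817300) 5 were lower and 2 higher of 27. From ZNF175 to ZNF331 (chr19:51571298-53580269) 6 were lower and 1 higher of 38, led by ZNF616 with 394 and 329 counts in shNC and 235 and 227 in shMETTL14 (-0.64, SE 0.11, edgeR adjusted p 2.79e-05). The last cluster, from ZNF628 to ZNF446 (chr19:55476332-58481230), was the largest and the most even, with 8 lower and 7 higher of 59 and a median of -0.04.

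Protein-coding genes inside the 9 clusters whose symbols fall outside the ZNF naming are given beside them. These neighbours include other zinc finger genes, among them ZFP14, ZFP82 and ZFP30 in the cluster from ZNF565 to ZNF573. Of 71 tested, 15 were lower and 23 higher, 21.1% and 32.4%, with a median log2 fold change of 0.08. These shares were near the 20.2% and 33.8% of all other protein-coding genes of chromosome 19, and their difference from the ZNF genes was not tested. In the last cluster 1 of 17 neighbours was lower and 7 were higher, with a median of 0.24, beside the even ZNF genes there. Those 17 include the zinc finger genes ZFP28, PEG3, ZIK1, ZSCAN1, ZSCAN18 and ZSCAN22, and PEG3 was the decrease. The comparison is therefore in part between zinc finger genes. From ZNF557 to ZNF846 the neighbours counted 8 lower and 8 higher of 29, beside ZNF genes with 7 lower and 2 higher.

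**Figure D4:**
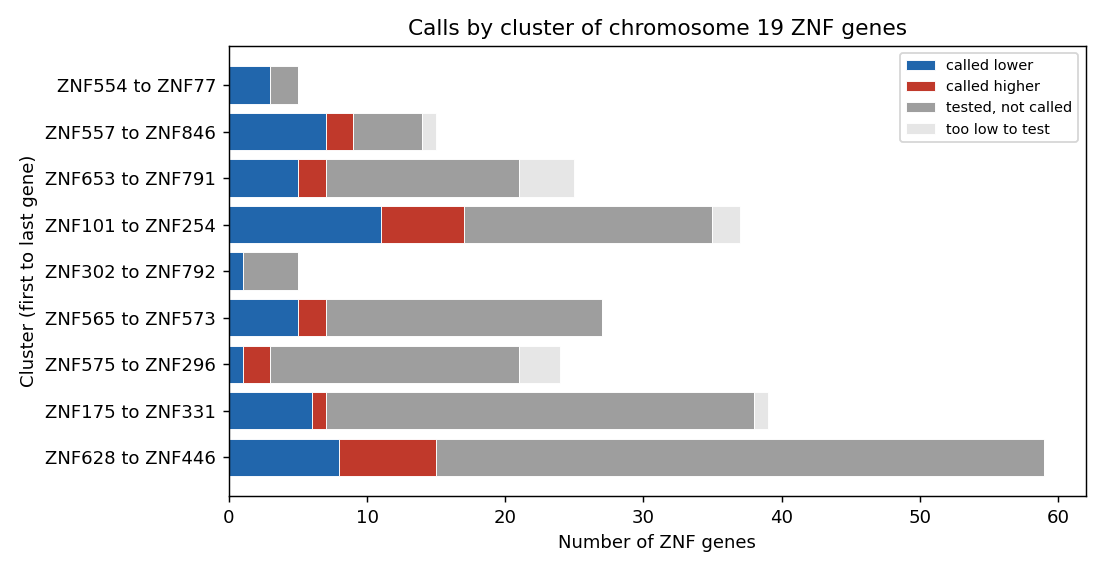
Number of ZNF genes (horizontal axis) called lower (blue), called higher (red), tested but not called (grey) and too low to test (light grey) in each of the 9 clusters of at least 5 members, ordered along the chromosome from top to bottom. Blue exceeds red in all but the cluster from ZNF575 to ZNF296.

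Members with known roles were read whatever their values. ZNF274, which brings SETDB1 to the ends of other zinc finger genes, had 210 and 201 counts in shNC and 238 and 246 in shMETTL14 (0.25, edgeR adjusted p 0.0751) and was not called. The paralogs ZNF417 and ZNF587, which repress HERV-K elements in neurons, were not called either. ZNF417 had 112 and 135 counts in each group, and 24.1% of its windows are shared with other ZNF genes. ZNF587 had 257 and 240 counts against 295 and 272, with 12.4% of its windows shared.

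ZNF473, a component of the U7 particle that trims histone messenger RNA, had 285 and 293 counts in shNC and 288 and 293 in shMETTL14. ZNF331, an imprinted gene, had 355 and 347 against 336 and 352. The groups of both genes overlapped, and neither was called. ZNF568, whose mouse counterpart silences a placental Igf2 transcript, had 206 and 189 counts against 212 and 191. It was not called either.

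The remaining role genes had negative log2 fold changes without a call. ZNF382, silenced by methylation in several tumours, had 283 and 263 counts in shNC and 219 and 235 in shMETTL14 (-0.26, edgeR adjusted p 0.0544), and it was called under 5 of the alternative settings. ZNF649 stood at -0.34 (edgeR adjusted p 0.0717), and ZNF304 at -0.20 (edgeR adjusted p 0.184). ZNF808, needed for pancreas development, had 130 and 87 counts against 94 and 82 (-0.29, edgeR adjusted p 0.211), and 17.6% of its windows are shared with other genes. Without shNC library 2 it was called at -0.52. ZNF649 was called at -0.46 without shNC library 1 and at -0.44 without shMETTL14 library 2, but stood at -0.20 without shNC library 2 and -0.22 without shMETTL14 library 1, with edgeR adjusted p-values of 0.394 and 0.341. It was also called with upper quartile scaling (-0.40) and with library size alone (-0.38).

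The KRAB proteins act through cofactors, and some of these were lower and others higher. Of 27 genes of a KRAB cofactor and heterochromatin list, all tested, 6 were lower and 11 higher, with a median log2 fold change of 0.01. These shares of 22.2% and 40.7% were near the 26.0% and 39.5% of all genes with a mean log2 CPM of 4 or above, a level that the median of the list also exceeded. The lower ones included SETDB1, the histone H3 lysine methyltransferase of the complex, with 1785 and 1774 counts in shNC and 1426 and 1236 in shMETTL14 (-0.41, edgeR adjusted p 2.42e-06). ATF7IP, which stabilises SETDB1, had 2093 and 2052 counts against 1441 and 1353 (-0.56, edgeR adjusted p 2.90e-09). The HP1 gene CBX5, the remodellers CHD3 and ATRX and the HUSH subunit TASOR were the other 4. TRIM28, the protein that KRAB boxes bind, was slightly higher, with 2651 and 2596 counts against 2836 and 2973 (0.16, edgeR adjusted p 0.00577). The HUSH-associated MORC2 and the DNA methylation factor UHRF1 had the largest increases, 0.44 and 0.41.

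The fingers and the AAACC word were compared with the change in transcript level. The members had 3104 fingers in all, with a median of 12 and a range of 0 to 36, against a median of 9 in the other ZNF genes. AAACC occurred 5.55 times per kilobase of coding sequence in the median member, 2.52 times in the other ZNF genes and 0.765 times in all protein-coding genes, counted on the sense strand only since it is read in RNA. It was present in 91.9% of members and in 63.9% of 19455 protein-coding genes. GGACT, the word most often given for m6A, had a median of 0.680 per kilobase in members and 0.975 in all protein-coding genes. KRAB members had a median of 5.88 AAACC per kilobase and members without the box 0.996.

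Members with few AAACC words had a median near 0. The 55 tested members with 0 to 4 such words had 6 lower and 10 higher and a median log2 fold change of 0.03. Their shares of 10.9% lower and 18.2% higher were both under the 25.3% and 27.2% of all tested genes. Those with 5 to 9 had 14 lower and 2 higher of 57 (median -0.20), those with 10 to 13 had 19 lower and 6 higher of 65 (median -0.14), and those with 14 to 36 had 12 lower and 4 higher of 58 (median -0.13). In the same order these were 24.6% lower and 3.51% higher, 29.2% and 9.23%, and 20.7% and 6.90%. Beyond the first group the median did not go on falling. Across the 235 members, which share libraries and in part sequence, Spearman's rho between word count and log2 fold change was -0.157, and among the 202 KRAB members it was -0.0624. The same measure over 12755 tested protein-coding genes was -0.138. Within KRAB members, those with 0 to 4 words had 4 lower and 4 higher of 34, 11.8% each, with a median of -0.04. The number of fingers had a rho of -0.0413 with the change. These weak relations are given as a description. No m6A was measured in these libraries.

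**Figure D5:**
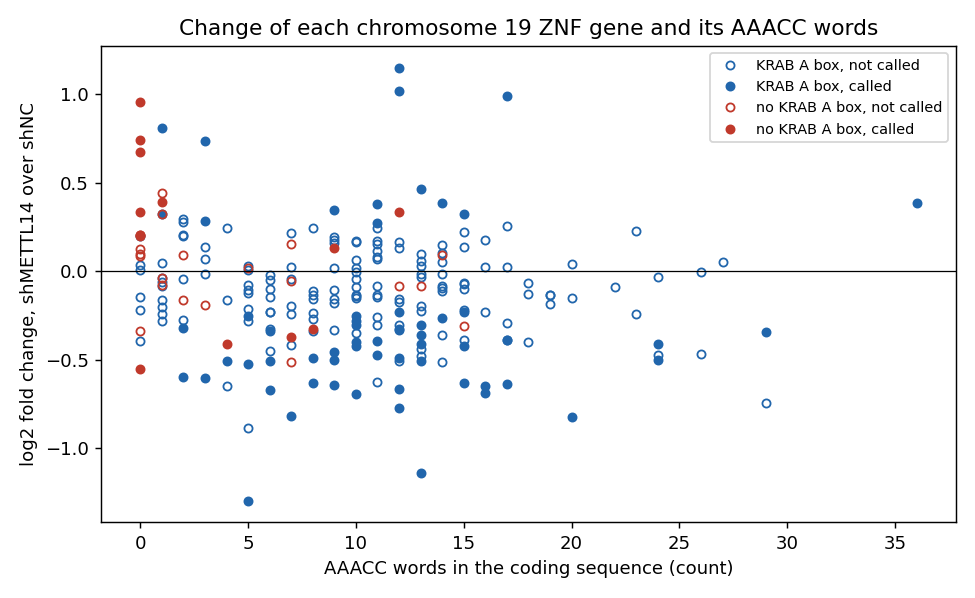
Log2 fold change of each tested chromosome 19 ZNF gene against the number of AAACC words in its coding sequence. Blue marks genes with a KRAB A box, red those without; filled points were called, open points were not. Most red points lie at 0 or 1 word, and the blue points show no steady slope.

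Shared sequence and overlapping genes bear on how safely reads were assigned. Exons of 137 members overlap another annotated gene, in 78 cases on the opposite strand and in 79 cases a protein-coding gene. The 106 tested members free of such overlap had 21 lower and 10 higher and a median of -0.08, shares of 19.8% and 9.43% that were close to those of all members. In 17 members at least 10% of the transcript windows occur in other ZNF genes, and the 221 tested members below that had 50 lower and 20 higher.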

How the data were processed

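The values used are raw counts, deposited by the authors as 1 table of genes (Ensembl IDs) against the 4 libraries, not normalized. The submitters' processing notes name HISAT2 2.1.0, StringTie 1.3.6, HTSeq 0.13.5 and edgeR and the GRCh38 build; the annotation release and strand setting are not given in the sources used here, so reads of genes that overlap on opposite strands may be lost or misassigned. Lines naming no gene, 19.1% to 19.9% of counts, entered neither library sizes nor tests. Symbols came from a table of gene names, and positions, gene types and exons from GENCODE 29.

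All genes were fitted with edgeR 4.0.16 in R 4.3.3 (TMM, filterByExpr with a minimum count of 10 and total of 15, quasi-likelihood F-test, group as the only term, Benjamini-Hochberg over all genes tested, threshold 0.05), after the procedure had been tested on simulated data. In the simulated data few genes changed, up or down at random, with a common dispersion. They do not cover a setting in which 52.5% of genes were called. With 2 libraries against 2 the smallest two-sided p of an exact permutation test is 0.333. Calls therefore rest on the variance model shared across genes. The SE came from the F statistic. RPKM used the union exon length. The KRAB A box was searched with a profile (pyhmmer 0.12.3, E-value up to 1e-05) and fingers by their cysteine and histidine spacing in the longest annotated protein. Alternatives were RLE, upper quartile and library size scaling, DESeq2 1.42.0, other filters, the replicate block, leaving out each library, a change of at least 1.5-fold, members free of overlap and other cluster gaps. The members, the gene lists and the naming rule were chosen with earlier results of these data known. The rule took the 8 largest increases and decreases among called members whose groups did not overlap, at a mean log2 CPM of 1 or more, the smallest adjusted p in each cluster of at least 5 tested members, the 5 highest RPKM in shNC, a list of members with known roles, and a cofactor list. No set test was run on the members, and counts are set beside those of all genes tested.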

Additional observations from a re-analysis of the deposited data

How the results depend on the processing

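The median log2 fold change of the chromosome 19 genes stayed negative under all alternatives run, from -0.20 with upper quartile scaling to -0.09 for members whose span overlaps no other gene, and from -0.14 to -0.12 when a library was left out. METTL14 stayed called throughout, and 13 to 18 genes of the cofactor list were called. Counts of calls moved. DESeq2 called 6 members higher and 23 lower (background 18.6% and 14.3%), all of them also called by edgeR. It called 19 ZNF genes elsewhere higher and 43 lower. KRAB members counted 3 higher and 19 lower by it, and members without KRAB 3 higher and 4 lower. With a change of at least 1.5-fold the counts were 8 and 16 on chromosome 19 and 7 and 24 elsewhere, and members whose span overlaps no other gene had 6 and 13 of 65 tested. Leaving out a library gave 13 to 16 higher and 36 to 52 lower members, with 13 without shNC library 1, and 32 to 40 higher and 73 to 75 lower elsewhere. Upper quartile scaling gave 31 higher elsewhere. The median elsewhere was -0.16 when scaled by the upper quartile, -0.14 when scaled by library size alone, and -0.11 to -0.059 without a library. These scalings shifted the median of all genes by -0.07 and -0.05. The cause was not tested.

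With the replicate number as a block, 22 members were higher and 58 lower with a median of -0.13; ZNF382 was called with it (-0.26, edgeR adjusted p 0.0483). Deviations of same-numbered libraries had a Pearson correlation of -0.0018 over genes, so the numbers are shared without showing a pairing.

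Of 407 values for 37 named members, 358 kept direction and side of the threshold, 26 lost the call, 10 gained it and 13, all of genes never called, changed sign. The latter were ZNF417 (upper quartile -0.059, library size -0.036, at least 10 counts in every library -0.0096, -0.15 to 0.18 without a library), ZNF473 (-0.051, -0.028, -0.0016 and -0.037 to 0.071), ZNF568 (upper quartile -0.029, library size -0.0067, -0.022 to 0.11 without a library) and ZNF331 (-0.057 to 0.030 without a library). At the median SE of 0.149, small changes of these genes cannot be seen. A gap of 0.5 Mb gave 10 clusters of at least 5 tested genes, 8 with more decreases, and 2 Mb gave 6 and 6.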

Other observations

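Some other C2H2 zinc finger genes of chromosome 19 were taken by symbol and read beside the members. The symbols were ZFP, ZSCAN, ZBTB, ZKSCAN or ZIM with a number, ZIK1, PEG3 and MZF1. C2H2 genes with other symbols were not covered. Of the 15 genes taken, 11 had enough counts. In shMETTL14 2 were lower and 1 higher, with a median log2 fold change of 0.08 (edgeR, threshold 0.05). PEG3, an imprinted gene expressed from the paternal allele that encodes a large C2H2 protein, had 209 and 225 counts in shNC and 92 and 100 in shMETTL14 (-1.17, edgeR adjusted p 5.04e-07), so its groups were far apart. ZFP14 was the other decrease, at -0.53, and ZSCAN18 the increase, at 0.24. These 3 genes were named after their values were seen.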
